A study of Mus musculus with 6 samples.

Results

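The 10 genes described here make, use and break down NAD, and were measured in megakaryocyte-lineage cells from Txnip knockout and wild-type mice. They are Bst1, Cd38, Nampt, Nmnat1, Nmnat3, Sirt1, Sirt2, Sirt3, Sirt6 and Parp1, found by symbol, and all 10 were among the 24410 genes of the table. RNA was sequenced from 3 KO libraries (Txnip -/-) and 3 WT libraries (wild type), all from C57BL/6 mice 5 months old. Lineage-negative marrow cells were cultured for 3 days with stem cell factor at 100 ng/mL and thrombopoietin at 20 ng/mL in medium with 10% serum, and cells carrying CD41 were then sorted. The knockout is not described as restricted to a cell type, so the cells and the mice they came from lacked Txnip. The list was chosen by the KO against WT values of Bst1 in these same libraries, which were higher in KO, and the other members were added because they belong to the same metabolism. The KO against WT differences of the members are therefore a description, given with their errors and with no p-value.

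NAD carries electrons in energy metabolism and is also consumed as a substrate. In the salvage route Nampt joins nicotinamide to a phosphoribosyl group to give NMN, and the Nmnat enzymes turn NMN into NAD. Sirtuins remove acyl groups from proteins, Parp1 attaches ADP-ribose to proteins at damaged DNA, and the ectoenzymes Cd38 and Bst1 (also called CD157) cleave NAD to ADP-ribose and cyclic ADP-ribose, a calcium-mobilising messenger. Each of these consumers releases nicotinamide, which the salvage route takes up again.

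Txnip, the gene deleted, had 0, 0.04 and 0 FPKM in KO 1 to KO 3, against 112, 228 and 143 FPKM in WT 1 to WT 3. FPKM is the number of fragments per kilobase of transcript, scaled to the mapped fragments of the library, so levels of different genes can be compared per length. Itga2b, which encodes CD41, lay between 92.8 and 152 FPKM in KO and between 83.2 and 111 in WT. The Y-linked gene Ddx3y was transcribed in libraries 1 and 2 of each genotype (22.8 to 41.7 FPKM) and listed at 0 in library 3, where Xist was found (91.6 FPKM in KO 3 and 48.1 FPKM in WT 3). By these genes libraries 1 and 2 were male and library 3 female in each genotype, so sex goes with the library number. The part of sex in the differences between library numbers was not tested. WT 2 stood apart, since 23.1% of its FPKM sum came from the RNase P RNA Rpph1, against 6.41% to 9.82% in the other libraries. The estimated depth was 14500000 fragments in KO 1, 25600000 in KO 3 and between 19200000 and 20000000 in WT, while the estimate for KO 2 rested on 33 values and is uncertain.

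Bst1 and Cd38 are paralogs that lie side by side on chromosome 5 of the mouse genome. Their coding sequences in GENCODE (release M21, GRCm38; transcripts Bst1-201 and Cd38-201) were 933 and 912 bases long and matched at 59.4% of 818 aligned bases. The following stretches, from coding base 90 of Bst1 and 162 of Cd38, are shown because they hold the longest run of identical bases, 12 bases in capitals, which bears on whether reads of these genes can be told apart.
Bst1: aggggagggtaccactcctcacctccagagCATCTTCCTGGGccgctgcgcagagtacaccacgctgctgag
Cd38: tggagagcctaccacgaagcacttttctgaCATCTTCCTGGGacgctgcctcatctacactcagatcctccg

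Bst1, whose product is anchored to the cell surface by a lipid tail, was at 4.13, 4.96 and 3.14 FPKM in KO 1 to KO 3 and at 1.95, 1.87 and 1.14 FPKM in WT 1 to WT 3. The lowest KO library lay above the highest WT library, and library 3 was the lowest in each genotype. The mean was 4.08 ± 0.91 FPKM in KO and 1.65 ± 0.45 FPKM in WT (SD, n = 3 each), a ratio of 2.47. On the log2(FPKM + 1) scale, which understates the change of low genes, the difference was 0.93 (SE 0.27), and 0.80, 1.05 and 0.95 for the pairs of KO and WT libraries numbered 1, 2 and 3. After the libraries were rescaled to a common FPKM sum, Bst1 lay between 3.53 and 4.95 in KO and between 1.25 and 2.18 in WT, still without overlap. On the coding transcript of 2856 bases, 1 fragment was worth about 0.015 to 0.026 FPKM at the estimated depths, so the Bst1 values rest on many fragments in each library.

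Cd38, the membrane-spanning paralog of Bst1 and the main NAD-degrading enzyme of many tissues, was at 0.69, 0.70 and 0.80 FPKM in KO 1 to KO 3 and at 0.29, 0.20 and 1.23 FPKM in WT 1 to WT 3. The KO libraries lay close together, while WT 3 was the highest and WT 2 the lowest of all 6, so the groups overlapped. Cd38 stayed below 1 FPKM in 5 libraries and was not among the genes tested. Its difference was 0.19 on the log2(FPKM + 1) scale, with 0.39 and 0.50 for pairs 1 and 2 and −0.31 for pair 3. Without WT 3 it was 0.47, and without WT 2 it was 0.03.

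Bst1 was the more abundant of the paralogs in 5 of 6 libraries. The level of Cd38 minus that of Bst1 averaged −1.17 ± 0.65 on the log2(FPKM + 1) scale (SD, n = 6 libraries), which did not pass (exact two-sided sign-flip permutation test over 6 libraries, p = 0.0625; adjusted over 4 gene pairs, p = 0.0625). The FPKM ratio of Cd38 to Bst1 was 0.17, 0.14 and 0.25 in KO 1 to KO 3, against 0.15, 0.11 and 1.08 in WT 1 to WT 3. WT 3 was the library in which the order turned.

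**Figure D1:**
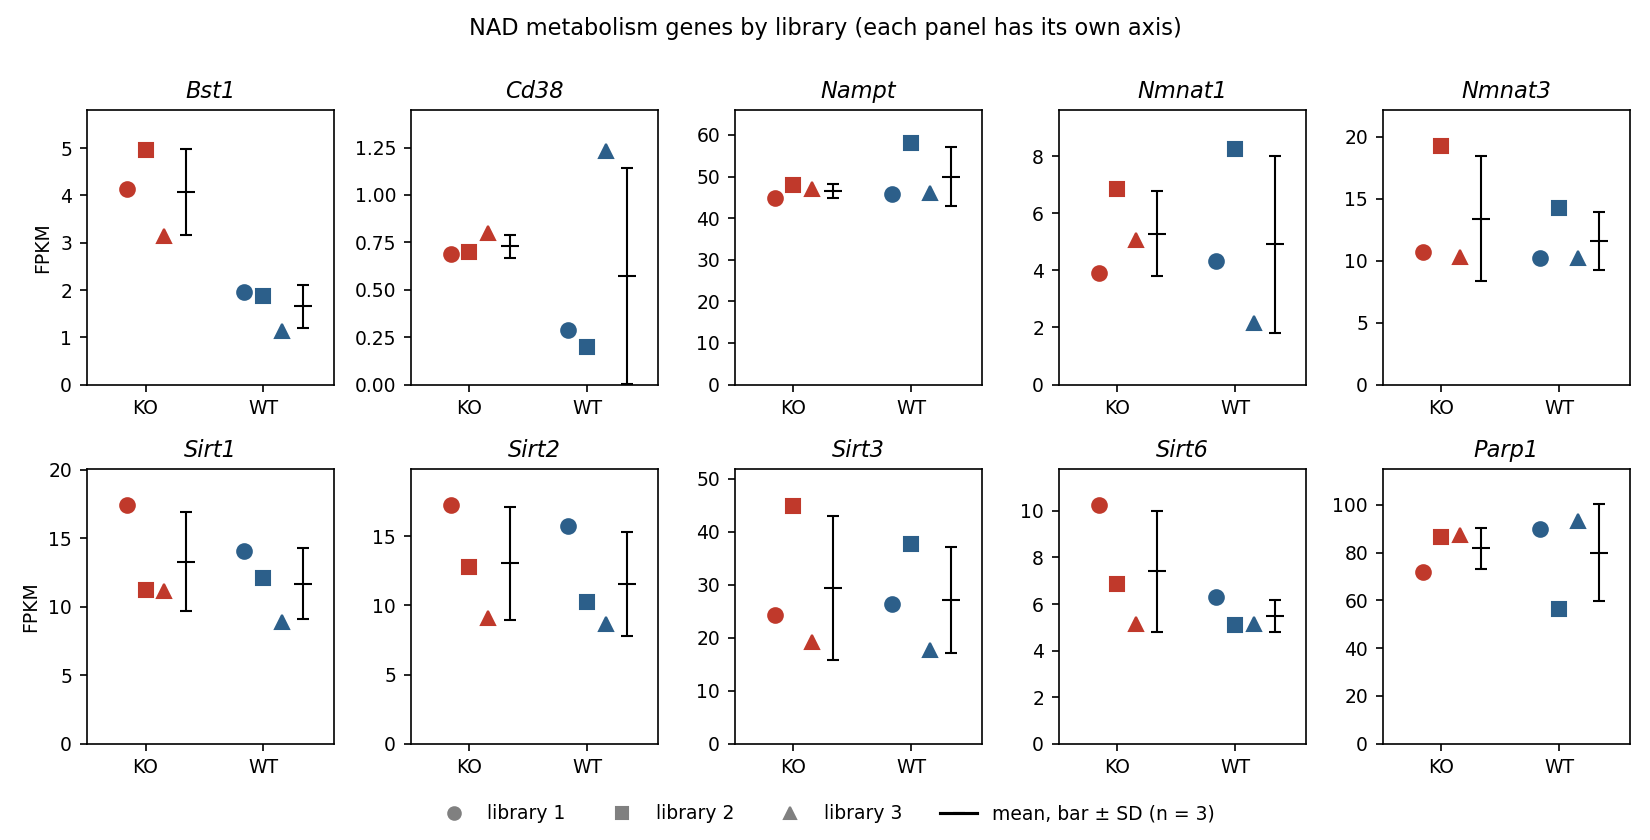
FPKM of the 10 NAD metabolism genes in each library, KO left and WT right, with the library number as the symbol and the mean ± SD (n = 3) as a bar beside it. Bst1 is the gene whose KO libraries (3.14 to 4.96 FPKM) all lie above its WT libraries (1.14 to 1.95 FPKM), while the groups of the other 9 genes overlap.

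Nampt, the rate-limiting enzyme of NAD salvage, had 44.7, 48.0 and 47.0 FPKM in KO 1 to KO 3 and 45.8, 58.1 and 46.1 FPKM in WT 1 to WT 3. This gene was the steadiest of the 10 genes, the highest library being 1.30 times the lowest, and 5 of the 6 libraries lay within 44.7 and 48.0. WT 2 was the library that stood above them. The difference was −0.09 (SE 0.19), and it turned to 0.02 without WT 2 and to 0.08 when the libraries were rescaled to a common sum.

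Nmnat1, the nuclear NMN adenylyltransferase, was at 3.91, 6.86 and 5.06 FPKM in KO 1 to KO 3, against 4.32, 8.25 and 2.14 FPKM in WT 1 to WT 3. Library 2 was the highest in each genotype and WT 3 the lowest, so that pair 3 differed by 0.95 while pairs 1 and 2 differed by −0.12 and −0.23. The mean difference was 0.20 (SE 0.40), and −0.19 without WT 3.

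Nmnat3, the mitochondrial form, was at 10.7, 19.2 and 10.3 FPKM in KO 1 to KO 3 and at 10.2, 14.2 and 10.2 FPKM in WT 1 to WT 3. Library 2 was again the highest in each genotype, and the other 4 libraries lay within 10.2 and 10.7 FPKM. The difference was 0.16 (SE 0.29) and −0.12 without KO 2. The groups overlapped as deposited, but after rescaling to a common sum KO lay between 11.6 and 19.2 and WT between 10.1 and 11.4. That rescaling divides WT 2 by a sum of which 23.1% was Rpph1, and under it 588 of all tested genes had KO above WT without overlap and 28 had KO below WT, against 373 and 116 as deposited. Nmnat3 was above Nmnat1 in 6 of 6 libraries, by 1.19 ± 0.39 (SD, n = 6 libraries) on the log2(FPKM + 1) scale. With the 6 libraries taken as separate, this order passed the exact two-sided sign-flip permutation test (p = 0.03125, the smallest that 6 libraries allow; adjusted over 4 gene pairs, p = 0.0417). Libraries of the same number deviated together, however, and with the KO and WT libraries of a number averaged there are 3 values, with which the exact test cannot go below p = 0.25. This limit holds for each of the 4 gene pairs compared in this way.

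Sirt1, the nuclear deacetylase of transcription factors and histones, was at 17.45, 11.2 and 11.2 FPKM in KO 1 to KO 3 and at 14.1, 12.1 and 8.90 FPKM in WT 1 to WT 3. Library 1 was the highest in each genotype, and the groups overlapped. The difference was 0.16 (SE 0.27), −0.04 without KO 1 and −0.01 without WT 3.

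Sirt6, a nuclear deacylase of histone H3, was at 10.25, 6.85 and 5.14 FPKM in KO 1 to KO 3, against 6.30, 5.08 and 5.13 FPKM in WT 1 to WT 3. Its KO libraries exceeded WT in 3 of 3 pairs, by 0.62 and 0.37 in pairs 1 and 2 and by 0.002 in pair 3, where the values were nearly equal. The difference was 0.33 (SE 0.28), and 0.10 without KO 1. Sirt6 was below Sirt1 in 6 of 6 libraries, with a level difference of −0.86 ± 0.21 on the log2(FPKM + 1) scale (SD, n = 6 libraries). The exact two-sided sign-flip permutation test gave p = 0.03125 with the 6 libraries as separate (adjusted over 4 gene pairs, p = 0.0417) and p = 0.25 with same-numbered libraries averaged.

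Sirt2, the mainly cytosolic sirtuin that deacetylates alpha-tubulin, was at 17.25, 12.8 and 9.10 FPKM in KO 1 to KO 3 and at 15.8, 10.2 and 8.66 FPKM in WT 1 to WT 3. In each genotype the libraries ran in the same order of numbers, with library 1 the highest and library 3 the lowest. The pairs differed by 0.12, 0.30 and 0.06, with a mean of 0.16 (SE 0.31), and was −0.05 without KO 1 and −0.01 without WT 3.

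Sirt3, the main mitochondrial protein deacetylase, was at 24.3, 44.8 and 19.2 FPKM in KO 1 to KO 3 and at 26.3, 37.6 and 17.65 FPKM in WT 1 to WT 3. Library 2 was the highest and library 3 the lowest in each genotype, and that spread was much wider than the difference between genotypes, which was 0.08 (SE 0.36), −0.26 without KO 2 and −0.18 without WT 3. Sirt3 exceeded Sirt2 in 6 of 6 libraries, by 1.10 ± 0.54 on the same log2 scale (SD, n = 6 libraries). The FPKM ratio of Sirt3 to Sirt2 was 1.41, 3.49 and 2.11 in KO 1 to KO 3, against 1.67, 3.67 and 2.04 in WT 1 to WT 3, so it followed the library number. The exact two-sided sign-flip permutation test gave p = 0.03125 with the 6 libraries as separate (adjusted over 4 gene pairs, p = 0.0417) and p = 0.25 with same-numbered libraries averaged.

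Parp1, a sensor of DNA breaks and the most abundant of the 10 genes by mean FPKM, was at 71.8, 86.4 and 87.2 FPKM in KO 1 to KO 3 and at 90.0, 56.5 and 93.35 FPKM in WT 1 to WT 3. WT 2 was the lowest of all, and it was the library in which Nampt exceeded Parp1. The pairs differed by −0.32, 0.60 and −0.10, with a mean of 0.06 (SE 0.24), and without WT 2 the difference was −0.17.

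By mean FPKM over the 6 libraries the order was Parp1 (80.9), Nampt (48.3), Sirt3 (28.3), Sirt1 (12.48), Nmnat3 (12.47), Sirt2 (12.3), Sirt6 (6.46), Nmnat1 (5.09), Bst1 (2.87) and Cd38 (0.65). Nampt over Sirt3, Sirt3 over Sirt1 and Sirt2 over Sirt6 held in 6 of 6 libraries. The other neighbours in this order crossed: Parp1 exceeded Nampt in 5 libraries, Nmnat1 exceeded Bst1 in 5, Sirt6 exceeded Nmnat1 in 4, Nmnat3 exceeded Sirt2 in 4 and Sirt1 exceeded Nmnat3 in 3. Sirt1, Nmnat3 and Sirt2 thus did not differ beyond their spread.

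Of the 10 members, 9 were tested, each with at least 1 FPKM in every library. Their differences were above 0 in 8 and below 0 in 1, Nampt, with a median of 0.16, beside 63.4% of all 11249 tested genes above 0 and a median of 0.06. Bst1 was the 1 member without overlap between the groups, where 3.32% of all tested genes had KO above WT and 1.03% had KO below WT. In 4 of the 9, namely Bst1, Nmnat3, Sirt2 and Sirt6, KO exceeded WT in 3 of 3 pairs, as in 20.4% of all tested genes. Since this contrast brought Bst1 onto the list, nothing is read from these counts. Without WT 3, 4 of the 9 were above 0 and 5 below (median −0.01); without KO 1 or KO 2 it was 6 and 3. Rescaling to a common sum gave 9 above 0, with a median of 0.32, but it also put 86.6% of all tested genes above 0, with a median of 0.22. With quantile normalization 8 of the 9 and 51.7% of all tested genes were above 0, with medians of 0.07 and 0.01.

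**Figure D2:**
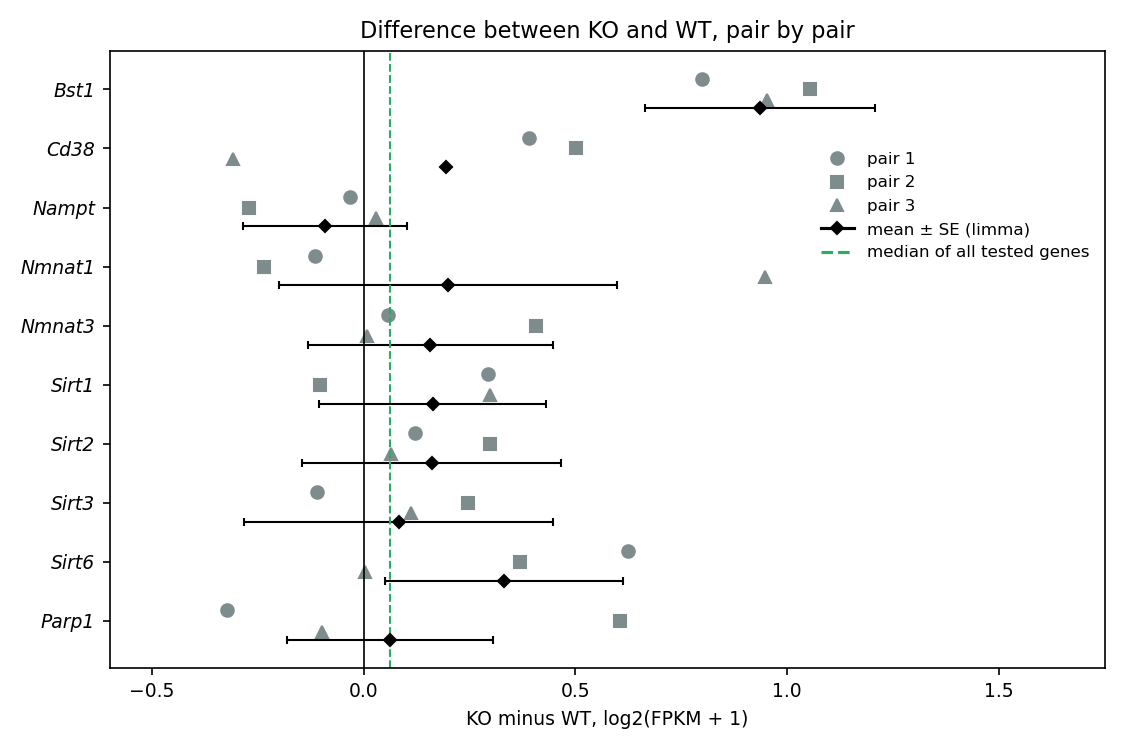
KO minus WT on the log2(FPKM + 1) scale for each gene, with the symbols for pairs 1 to 3, a diamond for the mean with its standard error from limma (none for Cd38, which was not tested), and a dashed line at the median of all tested genes, 0.06. The 3 pairs of Bst1 lie between 0.80 and 1.05, whereas the pairs of Cd38, Nampt, Nmnat1, Sirt1, Sirt3 and Parp1 fall on both sides of 0.

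Much of the variation among the members went with the library number. In 8 of the 9 tested members the library with the highest value had the same number in KO and in WT, beside 65.0% of all tested genes, and the lowest had the same number in 5 of 9, beside 60.5%. Library 2 was the highest for Nampt, Nmnat1, Nmnat3 and Sirt3, library 1 for Sirt1, Sirt2 and Sirt6, and library 3 for Parp1. Bst1 was the exception, highest in KO 2 and in WT 1. Across the 6 libraries, which share these numbers, the highest correlations of log2 levels were between Nmnat3 and Sirt3 (Pearson r = 0.90) and between Sirt1 and Sirt2 (r = 0.88). The most negative was between Nampt and Parp1 (r = −0.79). Between Bst1 and Cd38 r was 0.003. These are descriptions over 6 libraries.

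The genes whose log2 values followed Bst1 most closely over the 6 libraries were Zfp692 (Pearson r = 0.99), Tesk2, Cib2, Alkbh3 and Zfp212 (each r = 0.98), and the KO libraries lay above the WT libraries in all 5, beside 3.32% of all tested genes. Since Bst1 itself has this order, likeness to it brings the order with it, and the count is no separate result. Zfp692, a zinc finger gene, was at 10.6, 10.8 and 8.79 FPKM in KO 1 to KO 3 and at 6.98, 6.69 and 5.05 FPKM in WT 1 to WT 3. Like Bst1, it was lowest in library 3 of each genotype. The genes closest to Cd38 were Ocel1 and Aars2 (each r = 0.96), Mycn (r = 0.94), Saa3 (r = 0.94) and Metap1d (r = 0.94), with WT 3 the highest library in all 5. Cd38 was itself highest in WT 3, so likeness to it favours that library, and this count is no separate result either. Saa3, an acute-phase serum amyloid gene, was at 49.65, 51.3 and 61.1 FPKM in KO 1 to KO 3 and at 21.2, 15.4 and 63.7 FPKM in WT 1 to WT 3.

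Around Bst1 and Cd38 on chromosome 5, the 3 nearest genes of the table on either side did not separate the genotypes. Fbxl5, an iron-sensing ubiquitin ligase subunit next to Bst1, was at 22.3, 24.0 and 25.8 FPKM in KO 1 to KO 3 and at 20.55, 28.6 and 22.1 FPKM in WT 1 to WT 3. Prom1, which encodes the surface protein CD133, was between 2.52 and 7.29 FPKM in KO and between 3.22 and 4.14 in WT, and Tapt1 was between 23.8 and 32.8 in KO and between 25.2 and 29.97 in WT. Cc2d2a stayed between 0.38 and 1.05 FPKM, and C1qtnf7 and Fgfbp1 were listed at 0 in every library. Txnip lies on chromosome 3, and no member does.

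Bst1 protein is known on monocytes, neutrophils, early lymphocyte precursors and marrow stroma, so markers of other cells are given beside it. In RNA from a sorted pool, more cells of a type and more RNA per cell cannot be told apart. Of 12 monocyte and macrophage markers 10 had higher mean log2 values in KO, beside 63.4% of all tested genes. The summed FPKM of the 12 ranged from 456 to 835 in KO and from 529 to 752 in WT. The median difference of this list was 0.95, 0.25 and 0.01 in pairs 1, 2 and 3, while Bst1 differed by 0.80, 1.05 and 0.95. Ly6c2, the highest of this list, was between 268 and 513 FPKM in KO and between 328 and 442 in WT. Of 13 neutrophil markers 5 were higher and 8 lower, with sums of 3864 to 8829 FPKM in KO and 5832 to 7453 in WT, and Ctsg, the highest, at 899 to 2142 in KO and 1229 to 2387 in WT. The part of these myeloid cells in the Bst1 values was not tested.

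The B cell markers Pax5 and Ebf1 were listed at 0 in every library and 9 of 11 B cell markers stayed under 1 FPKM, so that the list's sum (9.82 to 16.7 FPKM in KO, 9.25 to 15.65 in WT) was mostly Cd79b. Of the 11, 7 had higher and 2 lower mean log2 values in KO. Igll1 and Vpreb1, which encode the surrogate light chain of B cell precursors, and Vpreb3 were listed at 0 in all WT libraries. In KO 1 to KO 3 Igll1 was at 0.41, 0.59 and 0 FPKM, Vpreb1 at 0.36, 0 and 0, and Vpreb3 at 0, 0 and 0.48. Blk, a kinase of B cells, was at 0.33, 0.35 and 0.02 FPKM in KO 1 to KO 3 and at 0.09, 0.04 and 0 in WT 1 to WT 3. These values were too low for the test, and their part in the Bst1 values was not tested. Of 10 T and NK cell markers 8 stayed under 1 FPKM and Cd3e was at 0 throughout, the sum of 77.2 to 99.4 FPKM in KO and 89.5 to 114 in WT being mostly Nkg7. Of 12 stroma and endothelium markers 8 stayed under 1 FPKM, Cxcl12 and Col3a1 were at 0 throughout, and the sum was 74.7 to 105 FPKM in KO and 86.7 to 101 in WT, mostly Pecam1. Plasmacytoid dendritic cell markers, led by Bst2, summed to 66.9 to 95.5 FPKM in KO and 66.7 to 88.8 in WT.

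Megakaryocyte markers, led by Pf4, summed to 701 to 1911 FPKM in KO and 666 to 1808 in WT, with 7 of 13 higher. Mast cell and basophil markers summed to 679 to 1479 FPKM in KO and 1088 to 1628 in WT. This sum was led by Mcpt8, whose groups overlapped. Of the 10, 8 had lower mean log2 values in KO, beside 4118 of all 11249 tested genes. Prss34 and Tpsb2 were higher, by 0.06 and 0.02, and Kit, Gata2 and Hdc differed by only −0.02, −0.06 and −0.08. Fcer1a, which encodes the IgE-binding subunit of the mast cell IgE receptor, was at 17.0, 8.84 and 15.5 FPKM in KO 1 to KO 3 and at 24.8, 34.8 and 27.03 FPKM in WT 1 to WT 3, without overlap, a difference of −1.05 (SE 0.28). The mast cell protease gene Cpa3 differed by −0.62 (SE 0.40) and Ms4a2, the beta chain of the IgE receptor, by −0.55 (SE 0.30), each lower in KO in 3 of 3 pairs with groups that overlapped. Erythroid markers, of which Hba-a2 was at 0, summed to 36.4 to 80.5 FPKM in KO and 53.5 to 113 in WT. The alpha globin gene Hba-a1 was at 3.79, 1.6 and 1.18 FPKM in KO 1 to KO 3 and at 7.49, 4.07 and 11.9 FPKM in WT 1 to WT 3, also without overlap, a difference of −1.45 (SE 0.42). Stem and multipotent progenitor markers, led by Cd34, summed to 208 to 339 FPKM in KO and 258 to 347 in WT. The sums of all 10 lists overlapped between the genotypes, but a sum follows its most abundant gene. Among the 67 tested markers Fcer1a and Hba-a1 were the 2 without overlap, both lower in KO, beside 1.03% of all tested genes. With limma 0 of the 67 passed an adjusted p of 0.05, with the library number as a block or without it. Of all tested genes 0.0267% passed with the block and 0.0178% without it. An unadjusted limma p under 0.05 was found for 2 of the 67 without the block, beside 0.676% of all tested genes. With the block there were 11, beside 6.93%. The part of mast cells, basophils or erythroid cells in the Bst1 values was not tested.

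**Figure D3:**
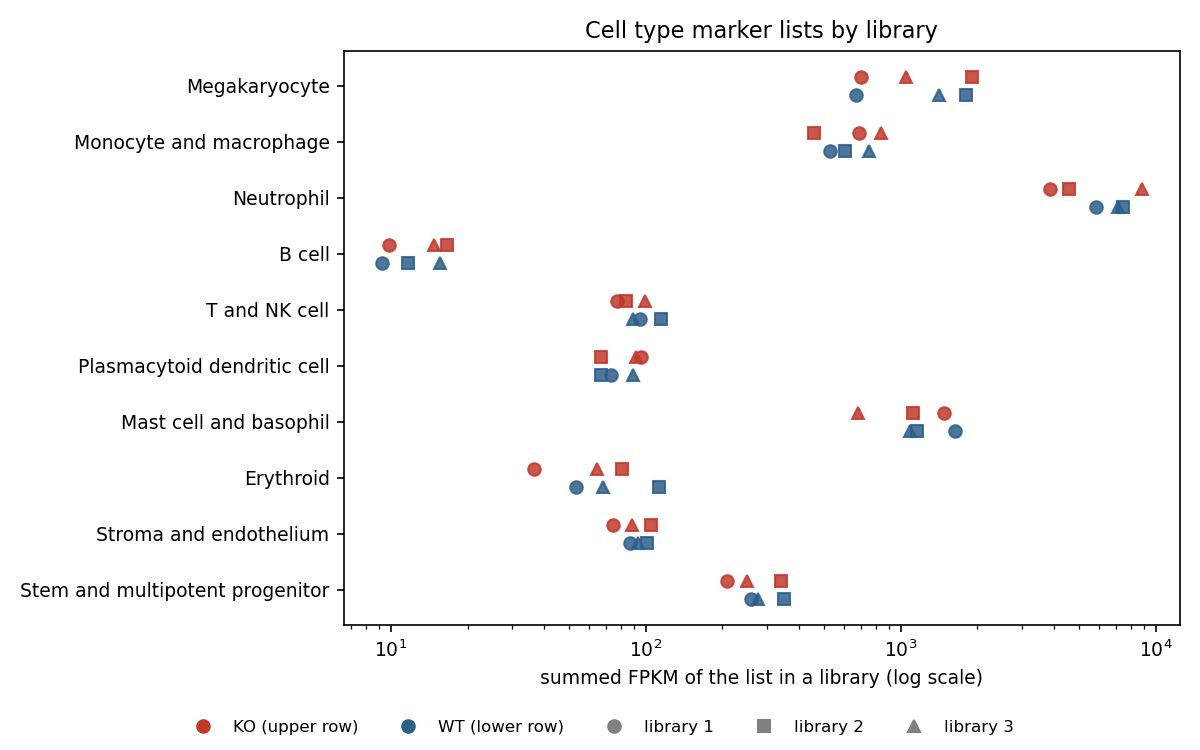
Summed FPKM of 10 marker lists in each library on a log axis, KO in the upper and WT in the lower row of each list, with the library number as the symbol. The sums of the KO and WT libraries overlap in every list, with the neutrophil list highest and the B cell list lowest.

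The other genes of NAD metabolism were taken from lists by role, 67 genes in the table of which 51 were tested. Of these, 43 had higher and 8 lower mean log2 values in KO, beside 63.4% of all tested genes with higher values. The median difference was 0.12, beside 0.06 for all tested genes. The share of all tested genes was 86.6% after rescaling to a common sum and 51.7% with quantile normalization. The 51 genes were not counted under these 2 scalings, so 43 of 51 cannot be set against those shares. With limma 0 of 51 passed an adjusted p of 0.05, with the library number as a block or without it, beside 0.0178% of all tested genes without the block and 0.0267% with it. At an unadjusted p under 0.05 it was 0 of 51 without the block and 7 with it, namely Haao, Nmrk1, Nudt13, Sirt7, Parp6, Parp14 and Macrod1, all higher in KO, beside 0.676% and 6.93% of all tested genes. In 2 of 51, Sirt7 and Adprh, the lowest KO library exceeded the highest WT library, beside 3.32% of all tested genes.

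Synthesis from tryptophan was represented by few transcripts. The first enzymes Tdo2, Ido1 and Ido2 stayed at or below 0.15 FPKM, and 4 of the 9 genes of the route were tested. All 4 had higher means in KO (median difference 0.13), beside 63.4% of all tested genes. Haao, which forms the precursor of quinolinate, was the highest of them at 15.6 ± 9.57 FPKM in KO and 12.2 ± 8.26 FPKM in WT (SD, n = 3 each). Kmo was 2.05 ± 0.72 FPKM in KO and 1.76 ± 0.21 in WT, Afmid 1.80 ± 0.57 in KO and 1.55 ± 0.46 in WT, and Qprt, which leads into NAD synthesis, 1.98 ± 0.97 in KO and 1.82 ± 0.45 in WT. The groups overlapped in all 4.

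Of 8 tested genes of salvage from other precursors, 6 were higher and 2 lower (median difference 0.10). Pnp, purine nucleoside phosphorylase, was the most abundant at 81.4 ± 14.4 FPKM in KO and 83.3 ± 8.80 in WT, followed by the nucleotidase Nt5c2 at 23.4 ± 6.43 in KO and 21.5 ± 6.03 in WT. Nmrk1, the kinase that makes NMN from nicotinamide riboside, was at 3.47, 12.3 and 5.98 FPKM in KO 1 to KO 3 and at 2.67, 8.75 and 3.56 FPKM in WT 1 to WT 3. Its values were highest in library 2 of each genotype and higher in KO in 3 of 3 pairs. Pnp2, a close copy of Pnp whose share of reads is uncertain, was 6.08 ± 2.17 FPKM in KO and 4.87 ± 1.35 in WT. Nnmt, which methylates nicotinamide, was listed at 0 in 5 libraries.

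No tested gene that phosphorylates, repairs or transports NAD separated the genotypes. Nadk, the cytosolic NAD kinase, was at 86.5, 38.0 and 56.8 FPKM in KO 1 to KO 3 and at 83.3, 31.97 and 66.1 FPKM in WT 1 to WT 3, so libraries of the same number lay closer than libraries of the same genotype. Apoa1bp, an NADHX epimerase, was 52.9 ± 19.0 FPKM in KO and 55.2 ± 12.7 in WT, and Nadk2, the mitochondrial kinase, 33.8 ± 6.60 in KO and 33.2 ± 9.26 in WT. The 5 genes of this list split 3 higher and 2 lower (median 0.01). Slc25a51, the mitochondrial NAD carrier, was 26.9 ± 0.88 FPKM in KO and 25.6 ± 4.73 in WT, and Slc29a1, a nucleoside transporter, 36.0 ± 5.97 in KO and 33.97 ± 3.22 in WT. Gja1, connexin 43, was 3.40 ± 1.80 in KO and 4.26 ± 2.54 in WT, and the transport list split 3 higher and 1 lower (median 0.05).

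Of 7 other genes of NAD turnover, 3 stayed under 1 FPKM in every library and 4 were tested, with means of 5.45 to 62.7 FPKM. Of 6 calcium channels opened by messengers made from NAD or NADP, 3 stayed under 1 FPKM and 3 were tested, with means of 3.76 to 11.7 FPKM. Sarm1, the NAD hydrolase of axons, stayed at or below 0.09 FPKM, and the ryanodine receptor genes Ryr1, Ryr2 and Ryr3 at or below 0.16. Nudt5, an ADP-ribose pyrophosphatase, was 57.7 ± 15.4 FPKM in KO and 67.7 ± 17.5 in WT, Nudt9 23.7 ± 6.18 in KO and 22.0 ± 3.45 in WT, and Nudt13 6.40 ± 2.32 in KO and 4.50 ± 0.87 in WT. The tested genes of turnover split 2 higher and 2 lower (median 0.01). The endolysosomal two-pore channels Tpcn1 (12.4 ± 6.12 FPKM in KO, 11.1 ± 5.12 in WT) and Tpcn2 (5.20 ± 2.73 in KO, 4.30 ± 1.47 in WT) and the ADP-ribose-gated Trpm2 were the 3 channels tested. All 3 had higher means in KO (median 0.15), beside 63.4% of all tested genes.

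The remaining sirtuins and ADP-ribosyltransferases mostly had higher means in KO, as did 63.4% of all tested genes. Sirt7, the nucleolar sirtuin, was at 30.8, 37.6 and 29.7 FPKM in KO 1 to KO 3 and at 28.1, 23.4 and 24.4 FPKM in WT 1 to WT 3. Its groups did not overlap, though KO 3 and WT 1 were near each other, and the difference was 0.36 (SE 0.20). Sirt4 was 2.72 ± 0.87 FPKM in KO and 1.97 ± 0.61 in WT, and Sirt5 8.93 ± 4.92 in KO and 7.33 ± 1.95 in WT, both mitochondrial, so 3 of 3 sirtuins outside the members were higher (median 0.32). Of 15 ADP-ribosyltransferases 14 were higher and 1 lower (median 0.23). Parp6 was at 9.24, 8.77 and 4.60 FPKM in KO 1 to KO 3 and at 5.71, 4.64 and 3.55 FPKM in WT 1 to WT 3, a difference of 0.57 (SE 0.31) with groups that overlapped. Tnks2, a tankyrase, was the steadiest at 39.5 ± 1.81 FPKM in KO and 40.5 ± 0.95 in WT. Zc3hav1, the antiviral protein ZAP, was 42.4 ± 7.71 in KO and 35.01 ± 5.83 in WT, and Parp3 4.25 ± 0.80 in KO and 3.26 ± 0.55 in WT.

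Of the 5 tested genes that remove ADP-ribose, 5 were higher (median 0.13), beside 63.4% of all tested genes. Parg, which degrades poly(ADP-ribose) chains, was 26.0 ± 0.95 FPKM in KO and 24.7 ± 3.94 in WT, and Oard1 34.1 ± 12.8 in KO and 31.99 ± 15.7 in WT. Adprh, which frees arginine from ADP-ribose, was at 26.4, 26.1 and 26.4 FPKM in KO 1 to KO 3 and at 24.8, 17.8 and 25.6 FPKM in WT 1 to WT 3. Its groups were apart by less than 1 FPKM. Macrod1, a mitochondrial ADP-ribosylhydrolase, was 6.03 ± 1.76 FPKM in KO and 4.14 ± 2.31 in WT, with WT 3 the lowest at 1.74.

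**Figure D4:**
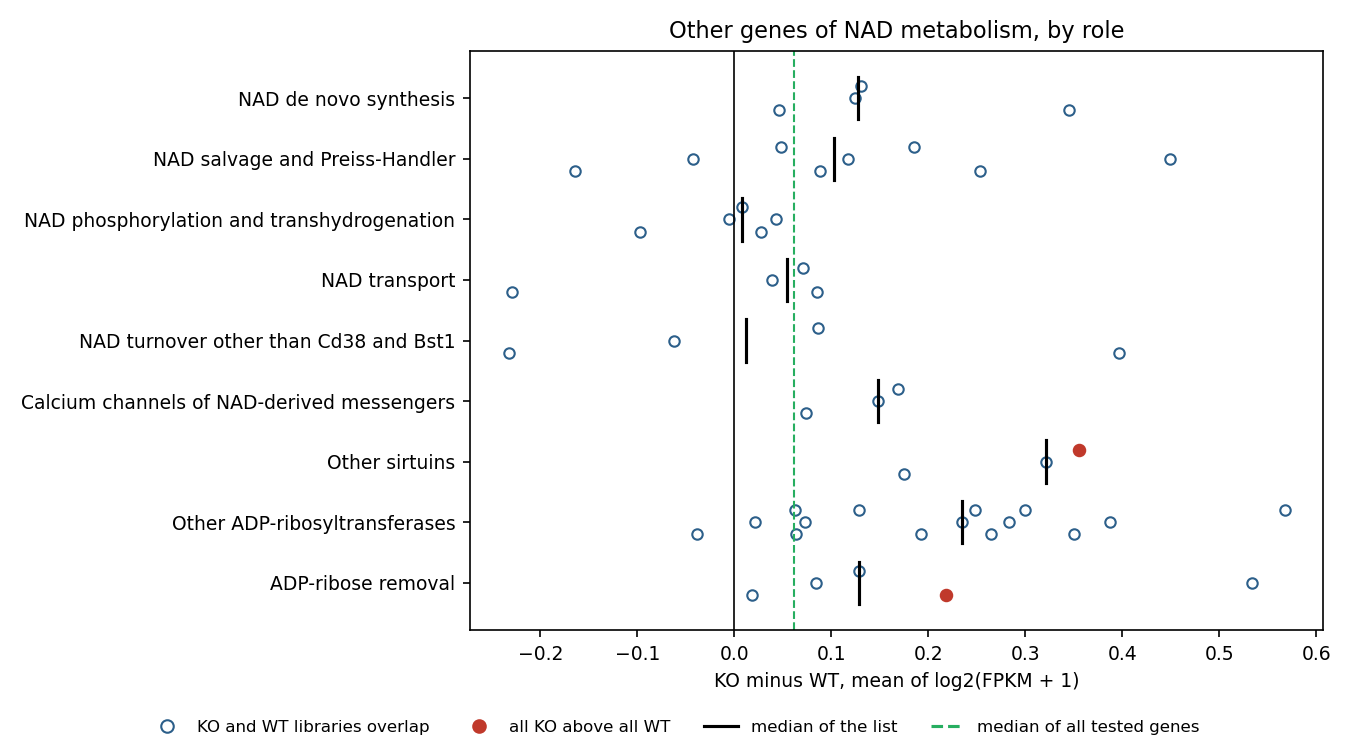
KO minus WT mean of log2(FPKM + 1) for the 51 tested genes outside the members, by role, with a bar at each list's median and a dashed line at the median of all tested genes, 0.06. Filled points are Sirt7 and Adprh, the 2 genes whose KO libraries all lie above their WT libraries, and no gene passes the threshold.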

How the data were processed

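RNA-seq of 3 KO and 3 WT libraries was deposited as FPKM per gene symbol, with 2 decimals; the authors' FPKM values are normalised to mapped fragments. Per the submitters' processing notes, FastQC, Trimmomatic 0.39, STAR 2.7.0a and RSEM 1.2.31 were used with mouse build mm9; settings, annotation and strand are not stated there. Groups and library numbers came from the titles.

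Depth, which the table does not state, was estimated from the spacing of low FPKM values of genes with 1 transcript, with GENCODE lengths of another build (GRCm38), so it is approximate and no interval was derived from it.

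KO was compared with WT by limma 3.58.1 in R 4.3.3 (eBayes with trend, two-sided) on log2(FPKM + 1), over 11249 genes (1 FPKM or more in 3 or more libraries), with Benjamini-Hochberg adjustment at 0.05. This fit was tested on simulated data in which the libraries varied independently of each other. The simulated spread of each gene was the residual SD of a fit with a block for the library number. That SD leaves out the spread between numbers, which the fit without a block meets in the real libraries. Deviations shared by same-numbered libraries, and the fit with a block for the number, were not simulated. Deviations from the group means correlated between same-numbered KO and WT libraries (r = 0.81, 0.59 and 0.38 for numbers 1 to 3), so the numbers were taken as pairs, and the fit was repeated with a block for the number. What a number marks, and whether libraries came from separate mice, is not in the labels, so p-values measure the spread between these libraries, which may be partly technical. Levels of 4 gene pairs were compared within libraries by exact sign-flip permutation tests, over 6 libraries and, added later, over the 3 numbers.

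Named genes were the members, Txnip, in each NAD list the 2 with the highest mean and the 2 with the smallest p, the 5 genes closest to Bst1 and to Cd38 (predicted genes skipped), the 3 neighbours on either side, and the leading and absent markers. Others named (among them Itga2b, Fcer1a, Cpa3, Ms4a2, Hba-a1, Igll1, Vpreb1, Vpreb3, Blk, Ddx3y, Xist, Rpph1, Qprt, Nnmt, Trpm2, Parp14 and genes at or near 0) were chosen after their values were seen. The members and lists were chosen with earlier results of these data known. Alternatives changed the pseudocount, filter, scaling, block and libraries. Coding sequences were aligned with Biopython 1.88. RefSeq on GRCm38 gave chromosomes and the order of neighbouring genes; as the files use mm9, no positions are given.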

Additional observations from a re-analysis of the deposited data

How the results depend on the processing

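The count of genes called between KO and WT over all tested genes was 2. It was 1 with no filter on low values and ranged from 1 to 3 when single libraries were left out; with the replicate block it was 3, and 36, 142 and 118 without pair 1, 2 or 3 in that fit. The count of other NAD genes called was 0, and 0 under each of the alternatives run. The Bst1 difference of 0.93 became 1.26 with a pseudocount of 0.1 and lay between 0.79 and 1.07 without single libraries. Except for that value, Nampt after rescaling and Cd38 with a pseudocount of 0.1 (0.62), the 164 recomputed member differences moved by less than 1 SD, although 13 had another sign, none of them of Bst1, Cd38 or Sirt6. The replicate block changed no call of another NAD gene. Chosen after the data were seen, counts of genes without overlap were 616 after rescaling (588 with KO above WT, 28 below), 702 without a filter (510 and 192) and 330 with a filter of 5 FPKM (238 and 92), against 489 (373 and 116). Also chosen then, averaging same-numbered libraries (the replicate block for gene pairs) left the differences at 1.19 for Nmnat3 against Nmnat1, 1.10 for Sirt3 against Sirt2 and −0.86 for Sirt6 against Sirt1, but 3 values cannot go below p = 0.25 in the exact sign-flip permutation test, so no order passed. With 5 libraries the exact sign-flip permutation test cannot go below p = 0.0625, so leaving 1 out says nothing about stability; the differences then ranged from 1.06 to 1.28 for Nmnat3 against Nmnat1, from 0.97 to 1.23 for Sirt3 against Sirt2, and from −0.91 to −0.81 for Sirt6 against Sirt1.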
